A study of Mus musculus with 17 samples.

Results

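The transcripts described here are those of 10 rapid immediate-early genes in mouse cortex, Fos, Fosb, Junb, Egr1, Egr2, Egr4, Nr4a1, Arc, Npas4 and Dusp1. They were chosen by name, and each matched 1 entry of a table of 55453 distinct gene symbols. All 10 passed the filter on low values, a mean of at least 1 TPM over all mice, which left 16265 genes. TPM values give the share of a transcript in its library after division by transcript length, scaled to a fixed total, so levels can be compared between genes. The cortex came from 17 male C57BL/6J mice in 6 groups. Hemizygous Hnrnph2-KO mice, R206W knockin mice and their 2 sets of wild-type littermate controls were sampled at 8 weeks, with 3 mice in each group. P209L knockin mice (n = 3) and their wild-type littermates (n = 2 analysed here) were sampled at 3 weeks, so line and age cannot be told apart for these mice. The KO line arose from a frameshifting indel obtained while the knockin lines were made, and both knockins place a human disease substitution in mouse hnRNPH2, an RNA-binding protein.

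Immediate-early genes are switched on within minutes of a stimulus, without the need for new protein. In cortical neurons, synaptic input and calcium entry act through kinases on factors already bound near these genes, chiefly CREB at cAMP response elements and SRF with its partners at CArG boxes. Their transcripts are short-lived, so their level in frozen tissue is widely used as a trace of recent neuronal activity, and in brain it is also raised by handling, arousal and the delay before dissection. The labels do not say at what time of day or how the mice were handled before the cortex was taken. In bulk tissue, fewer cells of a type and less RNA per cell cannot be told apart.

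Most of these genes moved together from mouse to mouse, as described below. The stretches before their starts are shown first. RefSeq windows on GRCm38.p6 were found for 8 of the 10 genes; no window was used for Arc or Egr1. The letters searched were TGACG, the core of a cAMP response element, on either strand, within the 250 bases before the annotated start. All 8 genes had at least 1 match in at least 1 window, against 19.8% of the 27025 genes with a window. The whole element, TGACGTCA, was found before Dusp1 alone, against 1.77% of genes. An exact CArG box, CCWWWWWWGG with W for A or T, was found in windows of Egr2 alone, against 1.62%. Looser matches and stretches beyond the 250 bases were not searched, so such sites may lie near the other genes. A match is a run of letters and no evidence of binding. The windows of 5 genes are printed 5′ to 3′ on the gene's own strand, with matches to TGACG or its reverse complement CGTCA in capitals. Fos, Nr4a1, Egr4 and Dusp1 stand for the genes that moved together, and Npas4 for the gene that moved least with them.
Fos, chr12:85473640-85473889, plus strand: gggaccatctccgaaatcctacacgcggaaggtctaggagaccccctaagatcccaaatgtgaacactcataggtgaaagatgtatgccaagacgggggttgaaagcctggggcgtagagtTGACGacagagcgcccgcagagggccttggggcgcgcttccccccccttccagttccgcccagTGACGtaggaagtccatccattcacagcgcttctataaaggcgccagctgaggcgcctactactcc
Nr4a1, chr15:101266596-101266845, plus strand: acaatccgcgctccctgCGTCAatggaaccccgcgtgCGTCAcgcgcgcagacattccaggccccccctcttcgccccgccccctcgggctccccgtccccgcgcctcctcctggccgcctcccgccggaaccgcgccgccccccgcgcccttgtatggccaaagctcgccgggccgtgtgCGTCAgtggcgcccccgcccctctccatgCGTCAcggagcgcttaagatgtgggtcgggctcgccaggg
Egr4, chr6:85513590-85513839, minus strand: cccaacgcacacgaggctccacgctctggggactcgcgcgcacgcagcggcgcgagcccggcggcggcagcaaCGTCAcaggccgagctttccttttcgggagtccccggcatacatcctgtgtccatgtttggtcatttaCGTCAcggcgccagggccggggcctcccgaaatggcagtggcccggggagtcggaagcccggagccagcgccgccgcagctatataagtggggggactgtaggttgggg
Dusp1, chr17:26508473-26508722, minus strand: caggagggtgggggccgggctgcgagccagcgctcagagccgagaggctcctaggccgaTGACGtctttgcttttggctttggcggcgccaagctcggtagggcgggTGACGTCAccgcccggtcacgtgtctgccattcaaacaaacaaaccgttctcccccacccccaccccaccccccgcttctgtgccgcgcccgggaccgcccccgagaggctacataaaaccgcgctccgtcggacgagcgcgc
Npas4, chr19:4989972-4990221, minus strand: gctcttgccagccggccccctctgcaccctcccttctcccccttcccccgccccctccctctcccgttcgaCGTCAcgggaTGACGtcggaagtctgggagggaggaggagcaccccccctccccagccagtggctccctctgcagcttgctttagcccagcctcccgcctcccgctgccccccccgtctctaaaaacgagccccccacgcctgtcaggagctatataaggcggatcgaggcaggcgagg

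The Fos window held 2 matches, the nearer starting 66 bases before the start, and the Nr4a1 window held 4. The Npas4 window held 2 matches on opposite strands. Whether such matches bear on the shared movement was not tested. In Dusp1, 3 matches were found, 2 of which overlap as the whole element. In the GENCODE M21 annotation of GRCm38, exons of a gene on the opposite strand overlap Junb (Prdx2, mean 241 TPM) and Dusp1 (Ergic1, mean 70.9 TPM). A further 3 annotated genes lie within the span of Dusp1 without exon overlap, at means of 0 to 0.0676 TPM. The libraries were stranded, but whether strand was used in counting is not given in the sources used here, so the levels of Junb and Dusp1 are less certain than the rest.

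The labels were checked first. Hnrnph2 was at 21.3 to 24.4 TPM in the 3 KO mice and 80.5 to 145 TPM in the KO Control mice, and it was the single gene called in that comparison (log2 difference -2.30, adjusted p 8.64e-06, limma). Excitatory neuron markers, 6 of 6 above the filter, summed to 1304 to 2828 TPM in each mouse. In KO Control 1, mitochondrial transcripts made up 20.1% of TPM, against 10.7% to 15.4% in the other 16 mice. In P209L Control 2, markers of the choroid plexus (5 genes, 3 above the filter, led by Ttr) summed to 1776 TPM, against 4.32 to 27.9 TPM elsewhere. TPM carries no read depth, so precision was judged from the spread between mice.

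The AP-1 subunits come first. Fos and Fosb encode leucine-zipper proteins that pair with Jun proteins, among them the product of Junb, to form the transcription factor AP-1. Fos was at 32.3, 64.1 and 43.7 TPM in KO Control mice 1, 2 and 3 and at 38.3, 58.1 and 82.4 TPM in KO mice 1, 2 and 3. It was at 74.9, 46.4 and 42.7 TPM in R206W Control mice and at 53.5, 68.2 and 106 TPM in R206W mice. In the 3-week line it was at 43.7 and 26.0 TPM in P209L Control mice and at 40.4, 28.2 and 18.5 TPM in P209L mice. The groups of every line overlapped, and the highest mouse of a group held 1.68 to 2.18 times the lowest. Fosb was the lowest of the 3 genes, with group means from 3.91 ± 1.90 TPM (SD, n = 2) in P209L Control mice to 17.3 ± 8.93 TPM (n = 3) in R206W mice. Its highest value, 27.2 TPM, was in R206W mouse 3, and its lowest, 2.57 TPM, in P209L Control 2. Junb ranged from 41.0 TPM in P209L Control 2 to 155 TPM in R206W mouse 3.

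The EGR genes encode zinc-finger transcription factors. Egr1 (chromosome 18, 34859823 to 34864984 on the plus strand) was among the most abundant of the 10, at 150, 393 and 331 TPM in KO Control mice and 173, 190 and 431 TPM in KO mice. In R206W Control mice it was at 438, 296 and 286 TPM, and in R206W mice at 318, 363 and 641 TPM. All 5 mice of the 3-week line were lower than most 8-week mice, at 142 and 102 TPM in P209L Control mice and 165, 87.2 and 161 TPM in P209L mice. Egr2 had the widest spread of the 10 genes within groups, with a pooled SD of 0.80 on the log2(TPM + 1) scale. In KO mice it went from 5.48 to 27.9 TPM, so that KO mouse 3 held 5.08 times the level of KO mouse 1. Egr4 had group means of 25.6 ± 10.2 TPM (SD, n = 3) in KO Control mice and 26.5 ± 15.5 TPM in KO mice. It lay between 27.0 and 50.2 TPM in R206W Control mice and between 34.9 and 63.4 TPM in R206W mice. In the 3-week line it was at 16.5 ± 3.03 TPM (n = 2) in controls and 15.8 ± 0.97 TPM (n = 3) in P209L mice.

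Nr4a1 encodes an orphan nuclear receptor. Its group means lay close together outside the R206W group, from 111 ± 56.6 TPM (SD, n = 2) in P209L Control mice to 146 ± 72.4 TPM (n = 3) in KO mice, and reached 195 ± 64.4 TPM in R206W mice. Npas4 encodes a neuron-specific bHLH-PAS factor that responds chiefly to calcium entry. It was at 10.9, 22.7 and 15.8 TPM in KO Control mice 1, 2 and 3 and at 30.1, 25.8 and 29.1 TPM in KO mice. It was at 19.7, 14.3 and 15.9 TPM in R206W Control mice and at 21.7, 25.2 and 30.8 TPM in R206W mice. In the 3-week line it was at 29.8 and 32.5 TPM in P209L Control mice and at 23.0, 23.1 and 17.4 TPM in P209L mice. The groups did not overlap in any of the 3 lines, with mutant mice above their controls at 8 weeks and below them at 3 weeks. Groups did not overlap, in either direction, for 6.25% of all tested genes in the KO line, 16.2% in the R206W line and 24.9% in the P209L line.

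The last pair are not transcription factors. Arc, whose product acts at synapses in AMPA receptor endocytosis and whose mRNA travels into dendrites, was at 208, 426 and 330 TPM in KO Control mice and 123, 162 and 499 TPM in KO mice. It was at 471, 310 and 303 TPM in R206W Control mice and 338, 461 and 668 TPM in R206W mice. In the 3-week line it was at 150 and 54.3 TPM in controls and 181, 65.2 and 73.8 TPM in P209L mice. KO mouse 3 thus held 4.04 times the level of KO mouse 1, and the 3 lowest values of all 17 mice were in the 3-week line. Dusp1 encodes a phosphatase that switches off MAP kinases. It was at 63.1, 44.7 and 49.4 TPM in R206W Control mice and 66.9, 81.8 and 104 TPM in R206W mice, with no overlap, and its groups overlapped in the other lines.

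**Figure D1:**
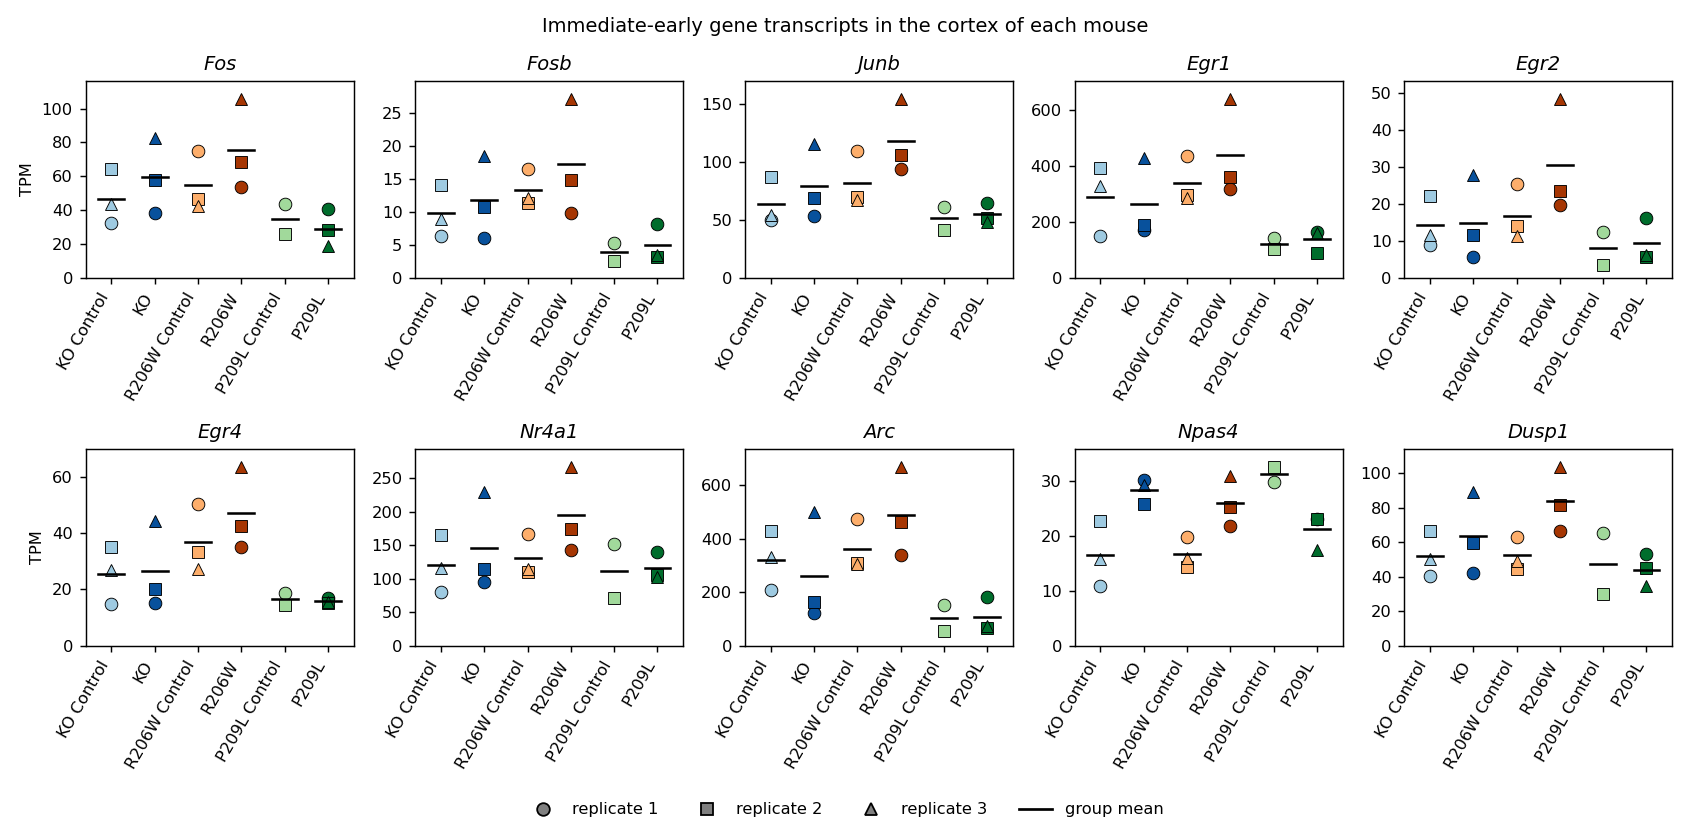
TPM of the 10 genes (vertical axes, each from 0) in every mouse of the 6 groups (horizontal axes), with a marker shape for each replicate number and a bar at the group mean. R206W mouse 3 (triangle) has the highest value of all 17 mice in 9 of the 10 panels, and in the Npas4 panel the order of the groups differs from the rest.

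Ordered by group mean, R206W mice were highest for 9 of the 10 genes, and the lowest mean was in one of the 3-week groups for the same 9. Npas4 had another order, with P209L Control highest (31.2 ± 1.89 TPM, n = 2) and KO Control lowest (16.5 ± 5.95 TPM, n = 3). Neighbouring groups in these orders seldom stood apart. Of the 50 pairs of neighbours, 5 differed by more than the larger of their 2 SDs, 3 of them for Npas4, and 1 did not overlap, KO over P209L mice for Egr1.

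In KO cortex, none of the 10 genes was called at an adjusted p under 0.05, where 0.00615% of the genes tested were called. The log2 difference, on the log2(TPM + 1) scale as throughout, was above 0 for 6 genes and below 0 for 4, with a median of 0.20 against 0.06 over all tested genes. Fos differed by 0.33 (SE 0.35, adjusted p 1.00) and Arc by -0.51 (SE 0.51, adjusted p 1.00). Npas4 differed by 0.80 (SE 0.20), with an unadjusted p of 0.00127 and an adjusted p of 0.825 from the limma fit. It was the single gene of the 10 at an unadjusted p under 0.05, against 4.08% of all genes, and the single one without overlap between groups, against 6.25% of all genes. The KO comparison of the other genes turned on single mice. Without KO mouse 3, the highest of its group for 9 of the 10 genes, 2 of the 10 were above the controls, and without KO Control 1 there were 4. With another single mouse left out there were 7 to 9, with 9 without KO Control 2 and likewise without KO mouse 1, 8 without KO mouse 2 and 7 without KO Control 3. Npas4 was at 0.55 without KO Control 1 (adjusted p 0.406). Sample weights from limma were 0.0818 for KO Control 1 and 4.05 for KO Control 2, the highest of its group for all 10 genes. They were 2.84 for KO mouse 1, the lowest of its group for 9, and 0.236 for KO mouse 3. With these weights Arc, Egr1, Egr2 and Egr4 were called as lower and 2156 of all genes were called.

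In R206W cortex all 10 genes had a log2 difference above 0, with a median of 0.49 and a range from 0.26 for Fosb to 0.79 for Egr2. The median over all tested genes was 0.01. None was called at an adjusted p under 0.05, where 0.0369% of all genes were called. Dusp1 (0.67, SE 0.30, p 0.0413, adjusted p 1.00) and Npas4 (0.61, SE 0.20, p 0.00911, adjusted p 1.00) had an unadjusted p under 0.05 in the limma fit, against 2.19% of all genes. These were also the 2 genes without overlap between groups, against 16.2% of all genes. The difference was 0.55 (SE 0.35) for Nr4a1, 0.52 (SE 0.29) for Junb, 0.45 (SE 0.35) for Fos and 0.41 (SE 0.51) for Arc. It was 0.34 (SE 0.35) for Egr4 and 0.33 (SE 0.40) for Egr1. These genes also moved together within groups, so the 10 signs are not independent of each other. Without R206W mouse 3, 9 of the 10 stayed above 0 with a median of 0.24, and Fosb was at -0.11. With sample weights, Npas4 was called in this comparison (0.59, adjusted p 0.0405), as were 149 of all genes, against 6 without weights.

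In P209L cortex at 3 weeks the genes were split, with 6 above 0 and 4 below, a median of 0.09 and an all-gene median of 0.02. None was called, where 0.0984% of all genes were. Egr2 differed by 0.25 (SE 0.62, adjusted p 0.983) and Fos by -0.28 (SE 0.39, adjusted p 0.958). Npas4 was lower by a log2 difference of -0.55 (SE 0.23), with an unadjusted p of 0.0298 in the limma fit and an adjusted p of 0.599. It was the single one of the 10 under 0.05 unadjusted, against 7.46% of all genes, and the single one without overlap, against 24.9%. The split rested on single mice. All 10 genes were below 0 without P209L Control 2, the library with choroid plexus transcripts, and likewise without P209L mouse 1, while 9 were above 0 without P209L Control 1. Without P209L Control 2, Npas4 was at -0.49 (p 0.125, adjusted p 1.00). An exact permutation test of TPM in any of the 3 lines cannot give a p under 0.1, which was the value for Npas4 in each line.

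Differences between the mutant effects were tested as interaction terms. The R206W effect minus the KO effect was above 0 for 9 of the 10 genes, with a median of 0.34. Without KO Control 1 it was above 0 for all 10, with a median of 0.59, and with other single mice left out for 7 to 9. The median fell to 0.055 without KO mouse 1, 0.085 without KO Control 2 and 0.098 without R206W mouse 3. It was 0.70 without KO mouse 3, so its size rested on single mice. None was called, where 0.0307% of all genes were, and none had an unadjusted p under 0.05, against 2.29%. The P209L effect minus the R206W effect was below 0 for all 10, with a median of -0.41. Without P209L Control 1 it was below 0 for 5 of the 10, with a median of -0.04, and without P209L Control 2 for all 10. Without R206W mouse 3 it was below 0 for 8 of the 10, with a median of -0.16. None was called, as was the case for all genes (0%), and Npas4 alone had an unadjusted p under 0.05, against 3.98%. Its difference between effects was -1.16 (p 0.00176, adjusted p 1.00).

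**Figure D2:**
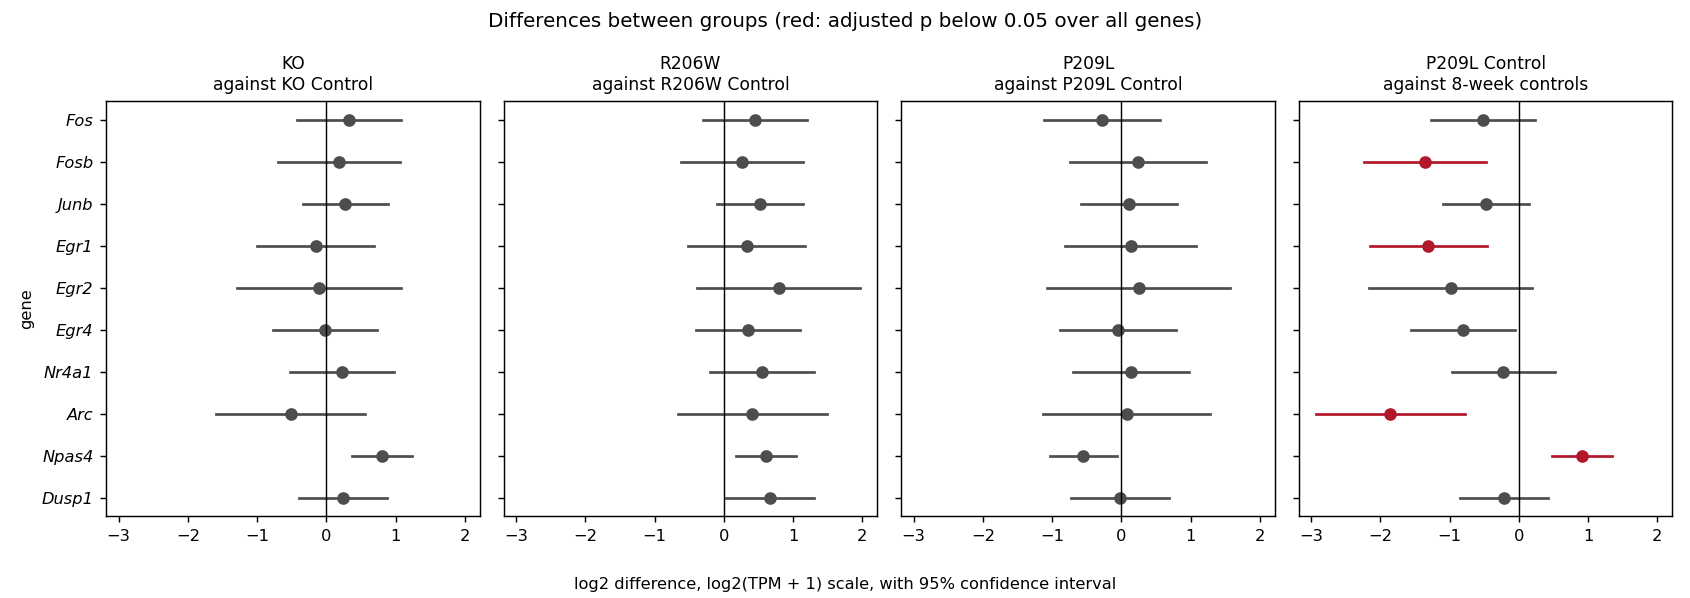
Log2 difference on the log2(TPM + 1) scale (horizontal axis) of each gene (vertical axis) in 4 comparisons, with points at the limma estimate and lines over the 95% confidence interval. Red marks an adjusted p under 0.05 over all 16265 genes, which occurs for Fosb, Egr1, Arc and Npas4 in the comparison of 3-week with 8-week controls and nowhere else.

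The wild-type groups were compared with each other to see how far the genes differ without a mutation. Between the 2 sets of 8-week controls, R206W Control mice were above KO Control mice for all 10 genes, with a median log2 difference of 0.24, and up to 0.54 (SE 0.35) for Egr4. The median over all genes was 0.13 in the same direction, and -0.0025 after scaling by median-of-ratios size factors, where 8 of the 10 genes stayed above 0. None of the 10 was called, as was the case for all genes (0%), and none had an unadjusted p under 0.05, against 3.12%. This sign also rested on single mice. Without KO Control 1, the library rich in mitochondrial transcripts, 4 of the 10 were above 0, and likewise without R206W Control 1. With sample weights 1 of the 10 was above 0, with a median of -0.25.

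The 3-week P209L Control mice differed more from the 8-week controls. Arc was lower by a log2 difference of -1.86 (SE 0.51, adjusted p 0.0106), with a mean of 102 ± 68.0 TPM (n = 2) against 341 ± 94.4 TPM (n = 6). Fosb was lower by -1.35 (SE 0.41, adjusted p 0.0193) and Egr1 by -1.31 (SE 0.40, adjusted p 0.0191). Npas4 was higher by 0.91 (SE 0.20, adjusted p 0.00341), at 31.2 ± 1.89 TPM (n = 2) against 16.5 ± 4.15 TPM (n = 6). These 4 of the 10 genes were called, where 36.1% of all genes were, so the share is near the background of this comparison. At an unadjusted p under 0.05 there were 5 of the 10, with Egr4 (-0.80, SE 0.35, p 0.0373, adjusted p 0.0869) as the other, against 46% of all genes. Groups did not overlap for 1 gene that was higher and 3 that were lower, against 38.2% of all genes in either direction.

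The other 5 genes were lower without passing the test, with Egr2 at -0.99 (SE 0.56), Fos at -0.52 (SE 0.35), Junb at -0.48 (SE 0.29), Nr4a1 at -0.23 (SE 0.35) and Dusp1 at -0.22 (SE 0.30). The median of the 10 was -0.66, against -0.12 over all genes. In an exact permutation test of TPM, two-sided, p was 0.0357 for Arc, Fosb and Npas4, the smallest that 2 mice against 6 allow, and 0.0714 for Egr1. P209L Control 2 had the lowest value of all 17 mice for 7 of the 10 genes and the highest for Npas4. Without it, 2719 of all genes (16.7%) were called in place of 5876. None of the 10 was then called, Npas4 was at 0.85 (adjusted p 0.0516), Arc at -1.13 (adjusted p 0.225), and 7 of the 10 were lower. Without P209L Control 1, Egr1 was no longer called (-1.55, adjusted p 0.0596), and without KO Control 1, Egr4 was called as well (-0.97, adjusted p 0.0249). The markers of excitatory neurons were lower in the same comparison, with 4 of 6 called and a median of -0.68, and summed to 1531 to 1648 TPM in P209L Control mice against 1635 to 2716 TPM in 8-week controls. Blood markers were higher, with 5 of 5 called and a median of 1.48, as were oligodendrocyte markers, with 4 of 6 called and a median of 0.67. Of 6 microglia markers, 4 were called lower and 1 higher. Without P209L Control 2 the median was 0.78 for blood, 0.37 for oligodendrocyte, -0.64 for excitatory neuron and -0.55 for microglia markers. The part of these differences in the levels of Arc, Fosb, Egr1 and Npas4 was not tested.

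The most regular feature of these genes was the mouse. Within each of the 6 groups, a single mouse was highest for 9 or all 10 genes. It was highest for all 10 in KO Control 2, R206W Control 1 and R206W 3, and for 9 in KO 3, P209L Control 1 and P209L 1. KO Control 1 and R206W 1 were lowest of their groups for all 10, and KO 1 for 9. R206W mouse 3 was the highest of the 17 mice for 9 genes. The exception in KO, P209L Control and P209L mice was Npas4 each time. In P209L mice this rested on 23.05 TPM in mouse 2 against 23.0 TPM in mouse 1, which is nearly a tie. In P209L Control mice it rested on 32.5 against 29.8 TPM. Npas4 was highest in KO mouse 1, which was the lowest of its group for the other 9. How often a mouse holds such ranks over all tested genes was not counted. KO Control 1 had the highest mitochondrial share of TPM of the 17 mice (20.1%) and R206W mouse 3 the lowest (10.7%). The part of these shares in the ranks was not tested.

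**Figure D3:**
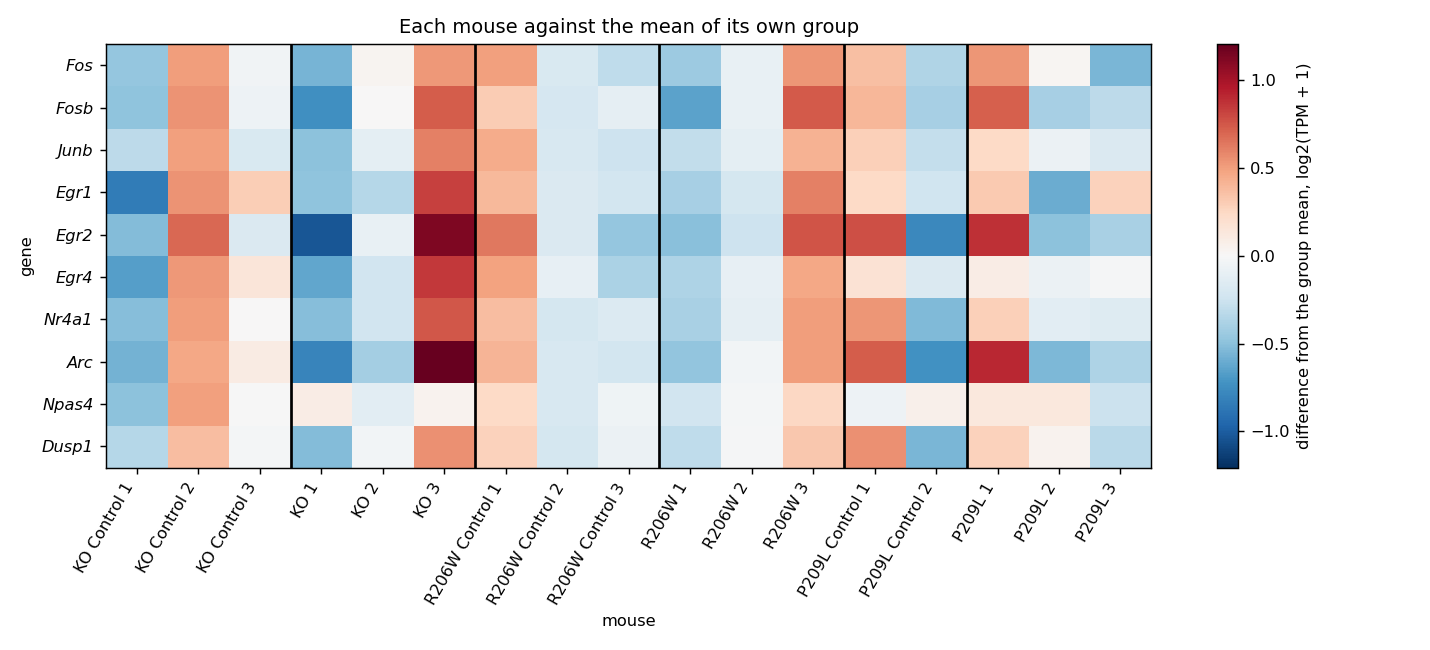
Difference of each mouse (horizontal axis) from the mean of its own group on the log2(TPM + 1) scale, for each gene (vertical axis), red above and blue below the mean, with black lines between groups. In each group a column is red for nearly all genes, and the Npas4 line is pale in the KO and P209L Control groups.

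The spread between mice of a group was large for these genes. The pooled within-group SD of log2(TPM + 1) was 0.41 to 0.80 for 9 of them, and 1.61% to 3.65% of all tested genes had a larger one. For Npas4 it was 0.28, and 15.8% of genes had a larger one. The median was 0.50 over the 10 genes and 0.19 over all genes. The 95% confidence interval of a difference was wide to match. In KO cortex it ran from -1.59 to 0.56 for Arc and from -1.29 to 1.08 for Egr2.

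With group means removed, the 45 pairs among the 10 genes had a median Pearson's r of 0.895 over the 17 mice (range 0.442 to 0.964, median Spearman's rho 0.858). Over all 132266980 pairs of tested genes the median r was 0.239, and 15.2% of pairs reached an r of 0.7, against 36 of the 45 pairs here. Each r was tested by an exact permutation of mice within groups (15552 arrangements, two-sided, smallest possible p 6.43e-05) and adjusted over the 45 pairs. The 36 pairs without Npas4 all passed, with r from 0.725 to 0.964 and permutation p adjusted to between 0.000362 and 0.0117. All 36 also passed by rho. Nr4a1 was nearest to the others, with an r of 0.978 with the mean of the other 9 genes.

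Npas4 stood apart from the rest. Its 9 pairs had r from 0.442 with Arc to 0.672 with Fos and a median of 0.564, and 6 passed by r but 1 by rho, that with Fos (permutation p adjusted 0.0373). Its r with the mean of the other 9 genes was 0.587, against 0.862 to 0.978 for each of the other genes with its own 9. Each r was also taken without 2 mice, those farthest from the median of 1 gene of the pair, so these mice differed between pairs. The 36 pairs then kept an r of at least 0.625, and the pairs with Npas4 lay between 0.393 and 0.724. The median of the 45 was 0.955 within the KO line, 0.965 within the R206W line and 0.850 within the P209L line. It was 0.845 without KO mouse 3 and R206W mouse 3.

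**Figure D4:**
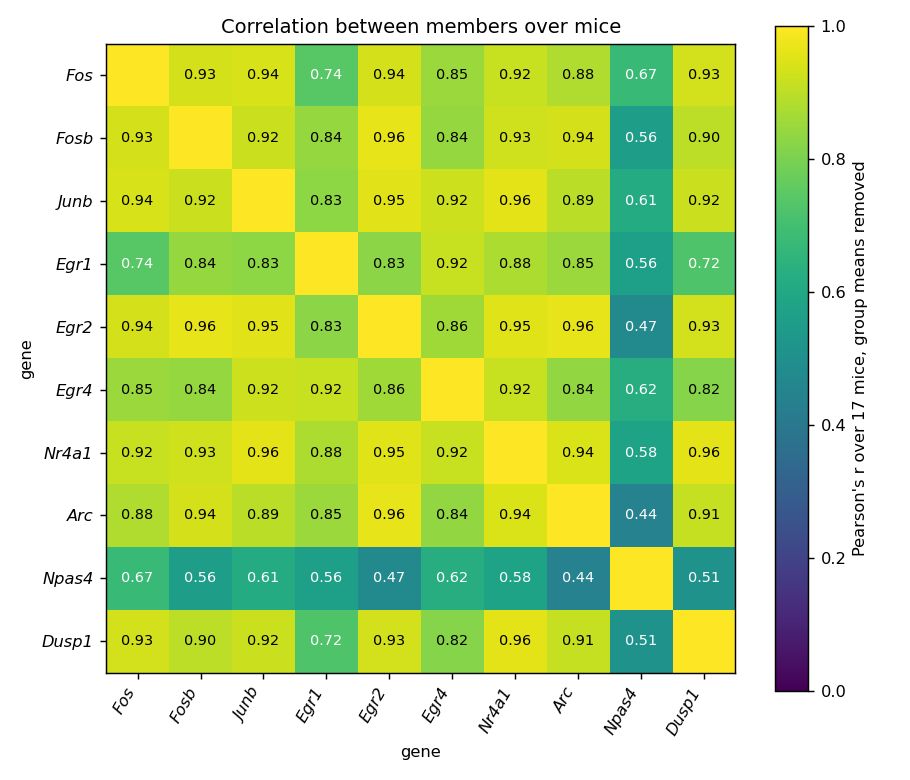
Pearson's r over 17 mice after removal of group means for each pair of the 10 genes (both axes list genes, colour and printed value give r). The Npas4 line and column hold the lowest values, 0.44 to 0.67, and all other pairs are at 0.72 or above.

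**Figure D5:**
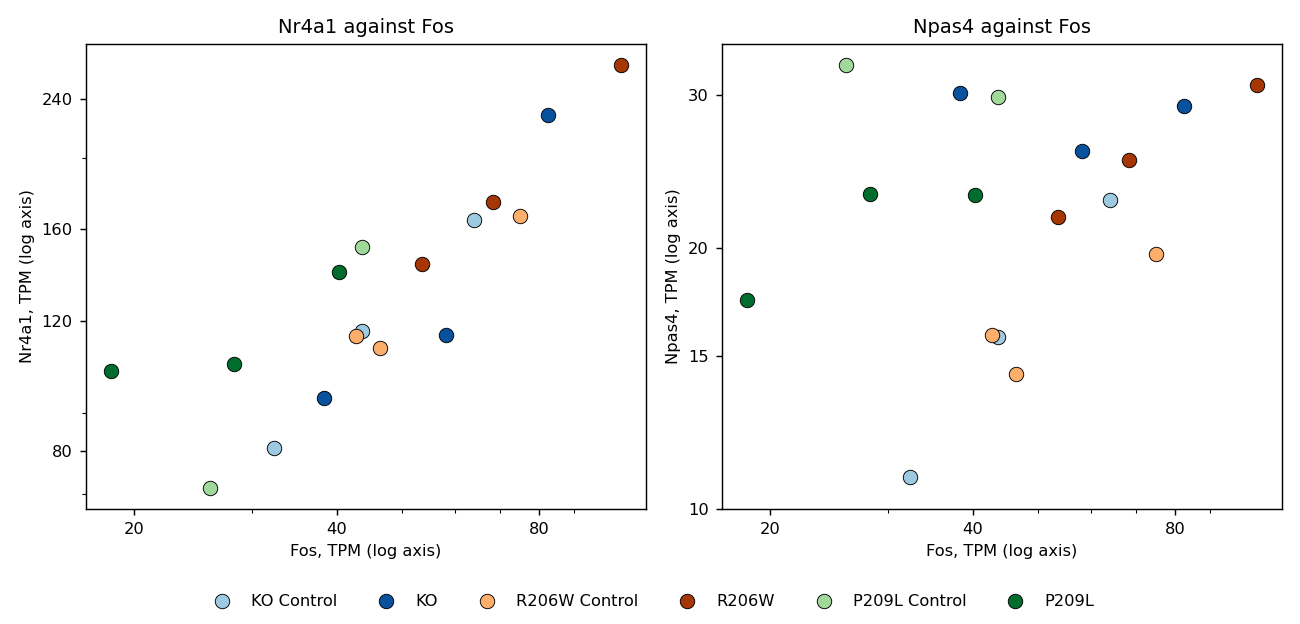
TPM of Nr4a1 (left) and Npas4 (right) against TPM of Fos in each of the 17 mice, on log axes, coloured by group. Nr4a1 rises with Fos across the groups, while the P209L Control mice and KO mouse 1 combine a low or middling Fos with about 30 TPM of Npas4.

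Genes outside the 10 that followed them most closely were ranked by r with a score, the mean of the 10 group-centred and SD-scaled values in each mouse. As the score was built from these libraries, the r values are a description. The highest were Arl4d (0.978), Dusp5 (0.960), Trib1 (0.955), Egr3 (0.947), Nab2 (0.947), Fosl2 (0.945), Nfkbid (0.942), Gadd45b (0.942), Ier2 (0.941) and Midn (0.939), against a median of 0.243 over all genes. Dusp5, Trib1, Egr3, Fosl2, Gadd45b and Ier2 were on a list of 28 other rapid immediate-early genes, and Nab2, a corepressor of EGR factors, was on a list of 31 upstream regulators. Over the 25 tested genes of the first list the median r was 0.821, and 22 were above 0.5. Over 20 delayed activity genes, which rise later and include secreted factors, it was 0.767. The median was 0.479 for 29 upstream kinases, factors and cofactors, 0.618 for 13 glucocorticoid-responsive genes and 0.558 for 15 circadian clock genes. It was 0.456 for 6 excitatory neuron markers and -0.03 for 6 oligodendrocyte markers. Per1, with an r of 0.927, was on both the glucocorticoid-responsive list and the clock list.

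The score was also set beside 15 features of the libraries. Over the 17 mice with group means removed, its r was -0.641 with the mitochondrial share of TPM (-0.551 without the 2 farthest mice) and 0.656 with the summed clock genes (0.527 without 2). It was 0.462 with the summed excitatory neuron markers (0.285 without 2) and 0.538 with the dentate and hippocampal markers (0.466 without 2). It was 0.468 with the interneuron markers (0.318 without 2) and 0.255 with the summed glucocorticoid-responsive genes (0.039 without 2). With the share of TPM in the 10 most abundant genes it was -0.635 (-0.527 without 2). With the other features it lay between -0.379 (choroid plexus) and 0.252 (striatal markers). These are descriptions over mice, and their part in the shared movement was not tested. The 2 mice of extreme score in the KO line, KO Control 1 at -1.25 and KO 3 at 1.56, had mitochondrial shares of 20.1% and 12.9%. In the same line KO 1 (score -1.21) and KO 2 (-0.36) had shares of 15.4% and 15.3%. KO Control 2 (1.24) had 13.2%, and KO Control 3 (0.0068) had the lowest share of the line, 12.6%.

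The other genes of the response were counted from fixed lists. In KO, R206W and P209L cortex, none of the other rapid genes, upstream regulators, delayed genes, glucocorticoid-responsive genes or clock genes was called. Among the 25 other rapid genes, 9 were above 0 in KO (median -0.14), 23 in R206W (median 0.23) and 18 in P209L (median 0.14). The smallest p-values of this list were those of Zfp36 in KO (0.36, p 0.0385, adjusted p 1.00), Btg2, an antiproliferative gene, in R206W (1.06, p 0.0101, adjusted p 1.00) and Myc in P209L (0.43, p 0.0434, adjusted p 0.649), all from limma. Among 20 delayed genes, 3 were above 0 in KO, 16 in R206W and 16 in P209L. Cort, the gene of the neuropeptide cortistatin, had the smallest p of these in P209L (0.85, p 0.00142, adjusted p 0.229). The other rapid and delayed genes moved with the score over mice (median r 0.821 and 0.767), so their signs are not independent. Whether these sign counts rested on single mice was not tested. Of the upstream regulators, Crem was at 0.59 in P209L (p 0.0126, adjusted p 0.488) and Creb1 at -0.21 in KO (p 0.0807, adjusted p 1.00). Of the clock genes, Dbp, an output gene of the clock, was at -0.66 in P209L (p 0.000413, adjusted p 0.128).

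Between 3-week and 8-week controls, 16 of the 25 other rapid genes were called, 15 lower and 1 higher, with a median of -0.85. Fbxo33 (-1.22, adjusted p 0.000133), Jund (-0.85, adjusted p 0.00295), Klf10 (-1.39, adjusted p 0.00512) and Ier5 (-1.48, adjusted p 0.00682) had the smallest p. Of the 29 upstream regulators, 19 were called, all lower, led by Creb1 (-0.88, adjusted p 7.33e-05), the gene of CREB, Camk4 (-1.57, adjusted p 0.000116), a calcium-dependent kinase that acts on it, and Ep300 (-1.31, adjusted p 0.000288), a histone acetyltransferase. Of the 20 delayed genes, 12 were called, 11 lower, among them Dusp4 (-1.93, adjusted p 0.000858), Nptx1 (-1.24, adjusted p 0.000887) and Homer1 (-1.80, adjusted p 0.0011). Clock genes were called in 8 of 15 cases, all lower, led by Bhlhe41 (-1.23, adjusted p 0.000195). These shares are to be read against the 36.1% of all genes called in this comparison. Without P209L Control 2 the calls fell to 3 of the 25 other rapid genes, 5 of the 29 upstream regulators, 4 of the 20 delayed genes and 6 of the 15 clock genes, against 16.7% of all genes. Npas4 went the other way from the median of every one of these lists.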

How the data were processed

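Cortical RNA (stranded total RNA libraries) was sequenced from 17 mice, and the file deposited by the authors gives TPM per symbol and mouse, already normalized for transcript length and library total. The submitters' processing notes name Trim Galore, STAR 2.7.1a, GATK 4.0.4.0, RSEM and mm10. TPM is a share of the whole, so abundant transcripts of 1 library shift all others, and depth is unknown. Groups were taken from the labels.

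Repeated symbols (120 entries) were summed, and genes with a mean of at least 1 TPM were tested on log2(TPM + 1) with limma 3.58.1 in R 4.3.3. The model had a mean for each of 6 groups, so all groups shared a residual spread, with eBayes(trend=TRUE), two-sided tests and Benjamini-Hochberg adjustment over 16265 genes (threshold 0.05). The limma p-values set a difference between group means against the spread between these mice within groups, pooled over the 6 groups. Correlations and exact permutation tests used Python 3.11.15 with scipy 1.17.1. The scripts were tested on simulated data.

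The genes and all lists were chosen with earlier results of these data known. The genes named are the 10, Hnrnph2 as a check, from each list at most 4 called genes (or 2 where none passed) with the smallest p, and the 10 genes most like the score. Alternatives were other pseudocounts, filters, scalings, weights and fits, a replicate block and leaving out each mouse. Another 2 alternatives, each without a pair of mice, were chosen after seeing the data. Set tests and resampling were not used.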

Additional observations from a re-analysis of the deposited data

Results flagged for a closer look

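The mice of the lines lay on opposite sides of their controls for Npas4. Every KO and R206W mouse was above all controls of its line, and every P209L mouse was below both of its controls. Groups did not overlap, in either direction, for 6.25% of all tested genes in the KO line, 16.2% in the R206W line and 24.9% in the P209L line. The P209L effect minus the R206W effect was -1.16 on the log2(TPM + 1) scale, with an unadjusted p of 0.00176 and an adjusted p of 1.00 by limma, so the difference did not pass the test over all genes. The P209L line was younger, so line and age cannot be told apart. No group had the 4 mice needed to test for an outlying mouse.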

How the results depend on the processing

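Sample weights (gene-by-gene method, as the default did not converge) changed most. With them 4 of the 10 genes were called in KO, against 13.3% of all genes, and 1 in R206W, against 0.916%. Between 3-week and 8-week controls 7 were called, against 58.2% of all genes, so this count is near the background. In the R206W effect minus the KO effect 1 was called, against 1.96%. With weights 1 of the 10 was above 0 in KO against 6 without, and Fosb (-0.74), Junb (-0.44), Nr4a1 (-0.56) and Dusp1 (-0.40) were also below 0. Without a filter on low values, 2 were called between 3-week and 8-week controls, where 5465 of a larger set of tested genes were. Leaving out a single 8-week control gave up to 5 of the 10 there, where 5021 to 8181 of the 16265 tested genes were called. In every other comparison, leaving out a mouse gave 0 with at least 2 mice left in each group. Of all genes, 0 to 15 were called in those fits. The median r of the 45 pairs was 0.955 and 0.965 within the KO and R206W lines, 0.845 without KO 3 and R206W 3, and 0.872 to 0.916 with single mice left out. Signs turned for Fos in KO (-0.43 with weights, -0.16 without KO Control 1 and KO 3, 0.07 to 0.61 with single mice left out) and Fos in P209L (0.00017 with a replicate block). With single mice left out, they turned for Fosb in R206W (-0.11 to 0.58), Fos (-0.64 to 0.086) and Egr2 (-0.52 to 1.03) in P209L, and Nr4a1 (-0.76 to 0.31) and Dusp1 (-0.77 to 0.34) between 3-week and 8-week controls. Fosb was also at -0.11 in R206W without KO 3 and R206W 3. The cause was not tested. Over the alternatives, all-gene calls ran from 0 to 2156 in KO, 4 to 149 in R206W, 6 to 72 in P209L, 0 to 26 between the 8-week controls, 2719 to 9471 between 3-week and 8-week controls, 1 to 319 in the R206W effect minus the KO effect and 0 to 7 in the P209L effect minus the R206W effect. Replicate numbers were not taken to pair mice, since same-numbered mice deviated with an r of -0.11 to 0.33 over genes. With a replicate block 0 of the 10 were called in KO, R206W and P209L. Between 3-week and 8-week controls 4 were then called, as were 4772 of all genes. Unknown depth and 2 or 3 mice a group limit all values.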
